A study of Mus musculus with 3 samples.

Results

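The cells described here were chosen from the deposited single-cell table of the mouse ovary by their own measured values, under a rule for *Lhcgr*-positive mural granulosa cells. That name is the rule's, and whether each cell is a mural granulosa cell was not tested. A cell was kept when its natural log value, ln(UMIs per 10000 + 1), was at least 2 for *Inha* and above 0 for *Inhba* or *Inhbb*, at 0 for *Tnfsf11*, *Ptprc* and *Pecam1*, and below 2 for *Cyp17a1* and *Dcn*, with fewer than 3 of the mitosis genes *Top2a*, *Mki67*, *Ube2c*, *Birc5*, *Ccnb2* and *Cenpf* detected. A UMI (unique molecular identifier) stands for 1 captured transcript. These conditions, called the gate below, kept 6090 of 31776 cells, and the 1384 of them with at least 1 *Lhcgr* UMI are the *Lhcgr*-positive cells. The other 4706 cells of the gate, with no *Lhcgr* UMI, serve as the comparison, although a cell without a UMI may still express the gene. Because *Lhcgr*, the inhibin subunits and the excluded genes chose the cells, their levels are given as a description.

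The study profiled whole mouse ovaries by 10x Genomics single-cell RNA sequencing from mice given hCG, which binds the LH receptor, at 0, 1 and 6 h of treatment, with 1 library per time point. The methods describe Kunming mice of 21 days, taken 48 h past an injection of PMSG, a preparation with FSH activity. They name no hCG and the labels name no PMSG, so how the 48 h relate to the 3 hCG times is not stated, nor is how many ovaries were pooled. The cells carry 3 barcode endings, here barcode sets 1, 2 and 3. The labels number the libraries, but nothing states that the endings follow that numbering, so no time point is assigned to a set. A set is 1 library at most, so cells of a set share their source and no test between sets or groups was made.

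The LH receptor, encoded by *Lhcgr*, is a G protein-coupled receptor that raises cAMP through adenylyl cyclase. In growing follicles it is found on theca cells and, after FSH has acted, on the mural granulosa cells that line the follicle wall, which thereby become able to answer the ovulatory surge. After the surge, mural granulosa cells switch from estradiol to progesterone synthesis and become luteal cells.

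*Lhcgr* lies on the minus strand at chr17:88716481-88791990 in the GENCODE annotation of GRCm38, the build also named mm10. The 250 bases before the RefSeq start of *Lhcgr* are shown because the receptor transcript defines the cells, and those of *Hmgcs1*, *Idi1* and *Cyp51* because these cholesterol synthesis genes were higher in the *Lhcgr*-positive cells of sets 1 and 2. Capitals mark exact matches, on either strand, to 6 motifs that were searched, namely the GC box (GGGCGG), the CCAAT box (CCAAT), the CRE half-site (TGACG), the NR5A site (AAGGTCA), the sterol regulatory element (TCACCCCAC) and the GATA site (AGATAA). No 2 matches overlapped in these windows. The sequences are from RefSeq on GRCm38.p6, written along the gene's own strand.
*Lhcgr* (minus strand, chr17:88792015-88792264): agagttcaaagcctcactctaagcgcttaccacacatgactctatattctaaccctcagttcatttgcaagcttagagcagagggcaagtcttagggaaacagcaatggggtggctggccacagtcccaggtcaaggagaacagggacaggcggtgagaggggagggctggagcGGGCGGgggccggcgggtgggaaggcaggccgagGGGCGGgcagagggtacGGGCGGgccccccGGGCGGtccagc
*Hmgcs1* (plus strand, chr13:119690101-119690350): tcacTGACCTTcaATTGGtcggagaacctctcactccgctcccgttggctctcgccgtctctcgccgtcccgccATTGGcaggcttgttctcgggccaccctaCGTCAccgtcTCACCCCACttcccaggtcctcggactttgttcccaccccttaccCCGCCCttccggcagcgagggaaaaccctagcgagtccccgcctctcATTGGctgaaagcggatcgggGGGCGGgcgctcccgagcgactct
*Idi1* (plus strand, chr13:8885356-8885605): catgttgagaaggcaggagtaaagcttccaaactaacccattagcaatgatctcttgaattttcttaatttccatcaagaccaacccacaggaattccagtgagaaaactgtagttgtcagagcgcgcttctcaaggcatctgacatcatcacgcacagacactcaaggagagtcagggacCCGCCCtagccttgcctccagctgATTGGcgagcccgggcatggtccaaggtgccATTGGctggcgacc
*Cyp51* (minus strand, chr5:4104698-4104947): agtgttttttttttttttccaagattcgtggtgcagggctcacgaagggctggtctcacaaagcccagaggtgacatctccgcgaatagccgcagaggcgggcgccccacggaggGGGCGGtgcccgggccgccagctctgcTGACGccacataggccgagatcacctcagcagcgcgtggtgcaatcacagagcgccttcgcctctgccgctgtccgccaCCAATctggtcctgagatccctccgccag

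The *Lhcgr* window held 4 GC boxes, at -76, -42, -25 and -12 from the start, and no letters of the other 5 motifs. Among 32851 promoter windows of this length, 32.7% held a GC box, 33.8% a CCAAT box, 17.8% a CRE half-site, 9.99% a GATA site, 4.08% an NR5A site and 0.496% the sterol regulatory element. The *Hmgcs1* window held the sterol regulatory element from -137 to -129, 3 CCAAT boxes, 2 GC boxes, 1 CRE half-site and 1 NR5A site. The *Idi1* window held 2 CCAAT boxes and 1 GC box, and the *Cyp51* window held 1 CCAAT box, 1 CRE half-site and 1 GC box. A match describes the letters alone, and binding was not measured.

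*Lhcgr* was found in the largest share of gate cells in set 1 and in the smallest in set 3. In set 1, 514 of 1689 gate cells had a *Lhcgr* UMI, or 30.4% (exact 95% binomial interval 28.2 to 32.7). In set 2 there were 621 of 2715, or 22.9% (21.3 to 24.5). In set 3 there were 249 of 1686, or 14.8% (13.1 to 16.6). The intervals of the 3 sets do not overlap, but they cover counting error only, with at most 1 library behind each. After each cell was thinned to 3000 UMIs and the gate applied again, the shares were 23.8, 16.5 and 6.30%, in the same order.

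*Lhcgr* UMIs were also found in cells that should lack the receptor. Endothelial-type cells, taken as *Pecam1* and *Cdh5* above 0 with *Inha* below 2, had a *Lhcgr* UMI in 14.3, 6.32 and 1.17% of cells by set. The median depths of those cells were 6316.5, 5894 and 5556.5 UMIs, against 6590.5, 6705 and 7039 in the *Lhcgr*-positive cells and 5435, 6164 and 6605 in the *Lhcgr* = 0 cells. Thinned, the endothelial-type shares were 6.99%, 2.61% and 0 of 289 cells, which allows a share of up to 1.04% (3 counts of the total), with an exact upper bound of 1.27%. Leukocyte-type cells, taken as *Ptprc* above 0 with *Inha* below 2, had a *Lhcgr* UMI in 15.3, 4.55 and 3.57% of cells. Thinned, those shares were 6.67, 3.37 and 2.70%, the last of 74 cells with an interval of 0.329 to 9.42%. That interval spans the thinned gate share of set 3, 6.30%. The gate share was above the endothelial-type and the leukocyte-type share in every set. Whether free RNA or doublets gave *Lhcgr* UMIs to any of these cells was not tested. Cells with *Cyp17a1* of at least 2, which include theca cells, had a *Lhcgr* UMI in 88.2, 67.9 and 66.6%.

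**Figure D1:**
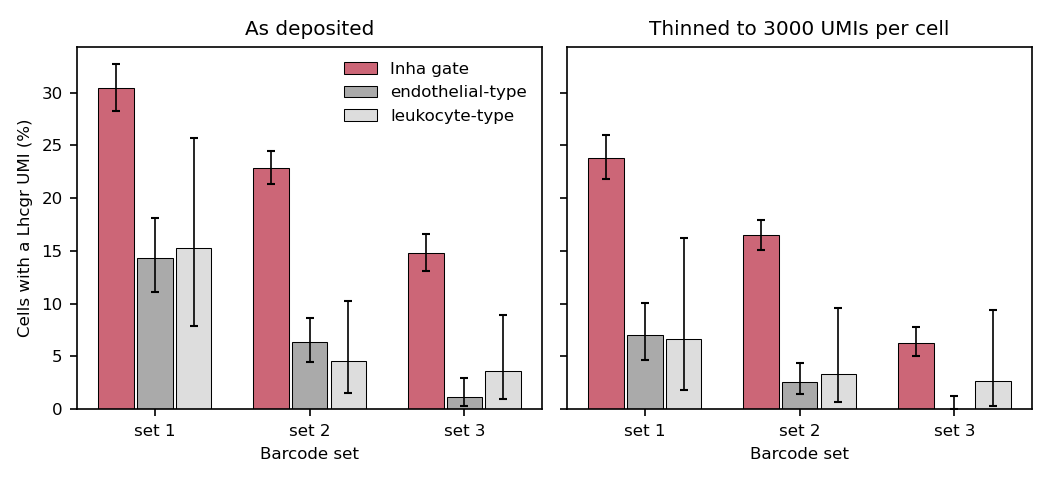
Share of cells with at least 1 Lhcgr UMI (y axis, percent) in the Inha gate, endothelial-type and leukocyte-type cells of barcode sets 1, 2 and 3, as deposited and thinned to 3000 UMIs per cell, with exact 95% binomial intervals as bars. The gate share is 30.4, 22.9 and 14.8% as deposited, above the endothelial-type share in each set.

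Levels are means over cells of UMIs per 10000. The *Lhcgr* level of the positive cells was 5.79, 3.74 and 2.33 in sets 1, 2 and 3. In set 1, 218 of the cells held 1 *Lhcgr* UMI, 114 held 2 or 3 and 182 held 4 or more, while in set 3 the numbers were 179, 51 and 19. Single-UMI cells thus made up 42.4% of the *Lhcgr*-positive cells in set 1, 53.1% in set 2 and 71.9% in set 3. The *Lhcgr*-positive gate cells held 10.9, 23.5 and 17.6% of the *Lhcgr* UMIs of their set. The lowest *Inha* value of a member in set 1 was 2.00109, and the highest value of a cell that failed on *Inha* alone was 1.99895.

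Granulosa transcripts were found in the *Lhcgr*-positive cells of each set, with a wide spread between cells in set 1. *Inha*, the inhibin alpha subunit, stood at 66.5, 76.5 and 40.8 in sets 1, 2 and 3. *Inhba*, the activin beta A subunit, stood at 37.97, 50.01 and 4.32, and *Inhbb* at 5.94, 4.82 and 0.781. Of the genes the gate did not use, the protease inhibitor *Serpine2* was at 16.0, 20.5 and 12.7 and follistatin (*Fst*) at 10.6, 18.0 and 3.63. The nuclear receptor *Nr5a2* was at 8.36, 12.2 and 2.30, and *Foxl2*, which maintains granulosa identity, at 3.19, 0.641 and 0.592. In set 1 the median per cell was 11.9 for *Serpine2*, 6.92 for *Nr5a2* and 7.89 for *Fst* in the *Lhcgr*-positive cells, against 19.4, 8.23 and 8.74 in the *Lhcgr* = 0 cells. The lower quartiles of the *Lhcgr*-positive cells were 1.30, 1.83 and 0.474, so the name granulosa may not describe all of these cells equally. Of the general granulosa marker list, 1 gene was called higher in each set and 1 of 8, 2 of 9 and 3 of 8 lower, with median ratios of 0.921, 0.978 and 0.794. *Kctd14*, on that list, was called lower in all 3 sets, with ratios of 0.496, 0.282 and 0.210. *Amh*, also on it, had ratios of 0.163, 0.239 and 0.462 with *Inha* of at least 2.5, and its set 3 call was lost in 2 settings. Calls are defined below, and over all genes compared 4.67, 4.25 and 4.31% were called higher and 5.47, 6.96 and 4.85% lower. Endothelial, immune, epithelial, oocyte and erythroid markers each summed to at most 0.444 in any set, and smooth muscle markers to 1.17, 1.99 and 2.17 in the *Lhcgr*-positive against 1.06, 2.83 and 2.57 in the *Lhcgr* = 0 cells. *Nppc*, the mural ligand that holds the oocyte in arrest, was 6.42 and 3.72 in sets 1 and 2 but 0.115 in set 3. Of the mural antral list as a whole, 2 of 6, 2 of 6 and 2 of 5 were called higher and 0, 0 and 1 lower, and its summed level was 48.8 against 31.0, 47.0 against 27.9 and 66.2 against 47.4, the last mostly *Nts* and *Cyp11a1*. *Cyp11a1* alone was at 21.2 against 2.91, 16.6 against 3.35 and 22.7 against 9.62, so these sums largely follow that gene.

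The *Lhcgr*-positive cells differed from the *Lhcgr*-positive cells with *Cyp17a1* of at least 2, of which there were 776, 332 and 195. *Nr5a2* was 12.6-fold higher in the granulosa group in set 1 (95% interval 11.6 to 13.7), 7.19-fold in set 2 and 15.2-fold in set 3. *Serpine2* was 15.5-, 7.31- and 15.04-fold higher. *Cyp11a1*, which makes pregnenolone from cholesterol, was in contrast 0.292, 0.280 and 0.238 times the level of the *Cyp17a1*-high cells. *Aldh1a1*, a retinaldehyde dehydrogenase on the theca list, was 0.306 times in set 1 and 0.135 times in set 2. Of genes described below, *Fdx1*, *Star* and *Hmgcs1* were also lower than in the *Cyp17a1*-high cells in each set. *Fdx1* was 0.327, 0.841 and 0.317 times, *Star* 0.442, 0.339 and 0.373 times and *Hmgcs1* 0.495, 0.577 and 0.631 times. *Prlr* was 0.974, 1.06 and 0.760 times and *Sfrp4* 0.674, 0.745 and 0.978 times. *Hsd3b1* was higher than in the *Cyp17a1*-high cells, at 1.07, 1.24 and 1.10 times. *Hsd17b7* was higher in sets 1 and 2, at 1.37 and 1.35 times, and lower in set 3, at 0.423 times.

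Theca and stroma transcripts were nevertheless present in some of the set 1 cells. Of the *Lhcgr*-positive cells, 48 in set 1 (9.34%), 9 in set 2 (1.45%) and 11 in set 3 (4.42%) had 2 or more of 12 theca and stroma genes at 2 or more, against 12 (1.02%), 60 (2.87%) and 34 (2.37%) of the *Lhcgr* = 0 cells. The 6 theca markers outside the gate summed to 53.9 in the *Lhcgr*-positive and 31.1 in the *Lhcgr* = 0 cells of set 1, 40.8 against 21.01 for set 2, and 21.03 against 16.5 for set 3. Most of that sum was *Hsd3b1*, which granulosa cells also express, at 44.6, 38.2 and 18.2 in the *Lhcgr*-positive cells. The defining theca marker *Insl3* was at 0.173, 0.00411 and 0.0104. The 7 stroma markers summed to 4.05 against 2.16 in set 1, 2.22 against 4.02 in set 2 and 3.09 against 3.70 in set 3. In set 1 *Aldh1a1* was 8.40 in the *Lhcgr*-positive and 1.83 in the *Lhcgr* = 0 cells, *Col3a1* was 1.64 and 0.526, and *Col1a2* was 1.24 and 0.453. With *Cyp17a1* and *Dcn* required to be 0, the *Aldh1a1* ratio went from 4.59 to 1.93 and the *Col3a1* ratio from 3.11 to 0.945. That condition kept 289 of the 514 *Lhcgr*-positive and 904 of the 1175 *Lhcgr* = 0 cells of set 1. Leaving out only the cells with 2 or more theca or stroma genes kept an *Aldh1a1* ratio of 3.07 in set 1. The part of theca-type transcripts in the set 1 differences below was not tested beyond these conditions.

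Each gene was compared between the *Lhcgr*-positive and *Lhcgr* = 0 cells of a set where its mean over the gate reached 0.2 UMIs per 10000. A gene is called higher at a ratio of at least 1.5 with a 95% counting interval above 1, and lower at 1/1.5 or less with an interval below 1, so a call can be lost under another setting through its ratio, its interval or a mean below the filter. The intervals cover counting error only: each UMI is treated as an independent count, so the spread between cells is left out. They are too narrow for that reason, and giving shallow and deep cells the same weight narrows them further. A call thus does not show that a difference exceeds the spread between cells. In set 2 the interval of the *Hsd17b7* ratio was 3.74 to 4.66, yet that ratio was 1.77 with *Inha* of at least 2.5. In set 1, 295 of 6322 genes were called higher (4.67%) and 346 lower (5.47%). In set 2, 227 of 5343 were higher (4.25%) and 372 lower (6.96%), and in set 3, 264 of 6127 were higher (4.31%) and 297 lower (4.85%). At 3000 UMIs the set 3 counts were 281 higher and 173 lower, turning the balance between the directions, as did counting only members with at least 2 *Lhcgr* UMIs (480 higher and 414 lower). The median ratio over all genes was 0.989, 0.951 and 1.02. Of 4746 genes above the filter in all 3 sets, 30 (0.632%) were called higher in each and 42 (0.885%) lower in each.

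Most genes of progesterone synthesis above the filter were called higher in the *Lhcgr*-positive cells. Of this list, 7 of 7 genes above the filter were called higher in set 1, 8 of 8 in set 2, and 5 of 9 in set 3, where 1 was lower. Their median ratios were 3.05, 2.22 and 1.53. *Cyp11a1* had the largest median ratio of all genes called higher in the 3 sets. Its level was 21.2 in the *Lhcgr*-positive and 2.91 in the *Lhcgr* = 0 cells of set 1, a ratio of 7.29 (95% interval 6.96 to 7.63). In set 2 it was 16.6 and 3.35, a ratio of 4.97 (4.81 to 5.14), and in set 3 it was 22.7 and 9.62, a ratio of 2.36 (2.28 to 2.45). The level in the *Lhcgr*-positive cells thus lay between 16.6 and 22.7, while that of the *Lhcgr* = 0 cells was highest in set 3.

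The *Cyp11a1* ratio of set 1 differed between settings but stayed above 1.5 in each. It was 3.97 in cells thinned to 3000 UMIs with the gate applied again, 4.46 with *Cyp17a1* and *Dcn* required to be 0, and 11.3 with the level taken from summed UMIs. Without the cells that had 2 or more theca or stroma genes it was 6.35, 4.93 and 2.12 in the 3 sets. Within the *Lhcgr*-positive cells the spread was wide: the median *Cyp11a1* level per cell was 6.10 in set 1 with quartiles of 1.82 and 28.4, and 15.8 in set 3 with quartiles of 7.77 and 29.9.

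*Fdx1* was called higher in all 3 sets, and *Fdxr* and *Hsd3b1* in sets 1 and 2. *Fdx1*, the ferredoxin that passes electrons to the *Cyp11a1* enzyme, was at 7.88 and 2.58 in set 1, at 79.1 and 34.4 in set 2, and at 19.5 and 11.1 in set 3. The *Fdx1* ratios were 3.05, 2.30 and 1.75, and at 3000 UMIs that of set 3 was 1.55. The ferredoxin reductase *Fdxr* had ratios of 2.23, 1.71 and 1.22, the last not called, and its set 1 call was lost at 3000 UMIs, where it was 1.49. The set 2 call of *Fdxr* was lost in 2 settings, among them *Inha* of at least 2.5, where it was 1.35. *Hsd3b1*, which turns pregnenolone into progesterone, had ratios of 1.57, 1.99 and 1.27, again not called in set 3.

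*Star*, which brings cholesterol to the inner mitochondrial membrane, was below the filter in set 1, at 0.433 and 0.0825. It stood at 10.2 and 4.04 in set 2, a ratio of 2.53 (2.43 to 2.63), and at 14.1 and 9.21 in set 3, a ratio of 1.53. The call in set 3 was lost at 3000 UMIs, where the *Star* ratio was 1.29, and in 6 other settings. *Hsd17b7*, an enzyme of both cholesterol and estradiol synthesis, had ratios of 3.40, 4.17 and 1.60. In set 2 *Hsd17b7* was at 0.257, 0.333 and 0.299 in cells with 0, 1, and 2 or 3 *Lhcgr* UMIs and at 4.05 in the 125 cells with 4 or more, and 18.4% of the members had a UMI of it. The set 2 ratio of *Hsd17b7* was 1.77 with *Inha* of at least 2.5 and 2.33 at 3000 UMIs, and its set 3 call was lost in 4 settings.

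Most genes that supply cholesterol, the substrate of these enzymes, were called higher in sets 1 and 2, and fewer in set 3. Of the list, 11 of 14 in set 1, 12 of 14 in set 2 and 4 of 15 in set 3 were called higher and none lower, with median ratios of 1.81, 1.80 and 1.29. *Scarb1*, the receptor that takes up cholesterol from HDL, was at 1.53 against 0.485 in set 1, 5.98 against 2.80 in set 2 and 3.36 against 1.97 in set 3. The *Scarb1* ratios were 3.16, 2.14 and 1.70, and that of set 1 was 1.88 at 3000 UMIs.

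Along the synthesis pathway, *Hmgcs1*, whose promoter window held the sterol regulatory element, was at 2.79 against 1.15 in set 1, 2.16 against 0.876 in set 2 and 5.96 against 4.11 in set 3. The *Hmgcs1* ratios were 2.43, 2.46 and 1.45, the last not called. *Idi1*, an isomerase, had ratios of 2.65, 2.43 and 1.56, and *Cyp51*, a demethylase, 2.04, 1.90 and 1.64. The set 3 calls were lost in 6 settings for *Idi1* and in 4 for *Cyp51*, and at 3000 UMIs the *Idi1* ratio was 1.55 in set 1 and 0.992 in set 3. *Dhcr7*, which makes cholesterol in the last step, had ratios of 1.84, 1.68 and 1.92, and its calls in sets 1 and 2 were lost at 3000 UMIs, at 1.38 and 1.27. *Npc1*, which releases cholesterol from lysosomes, was not called in any set, at 0.793, 0.858 and 1.16.

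**Figure D2:**
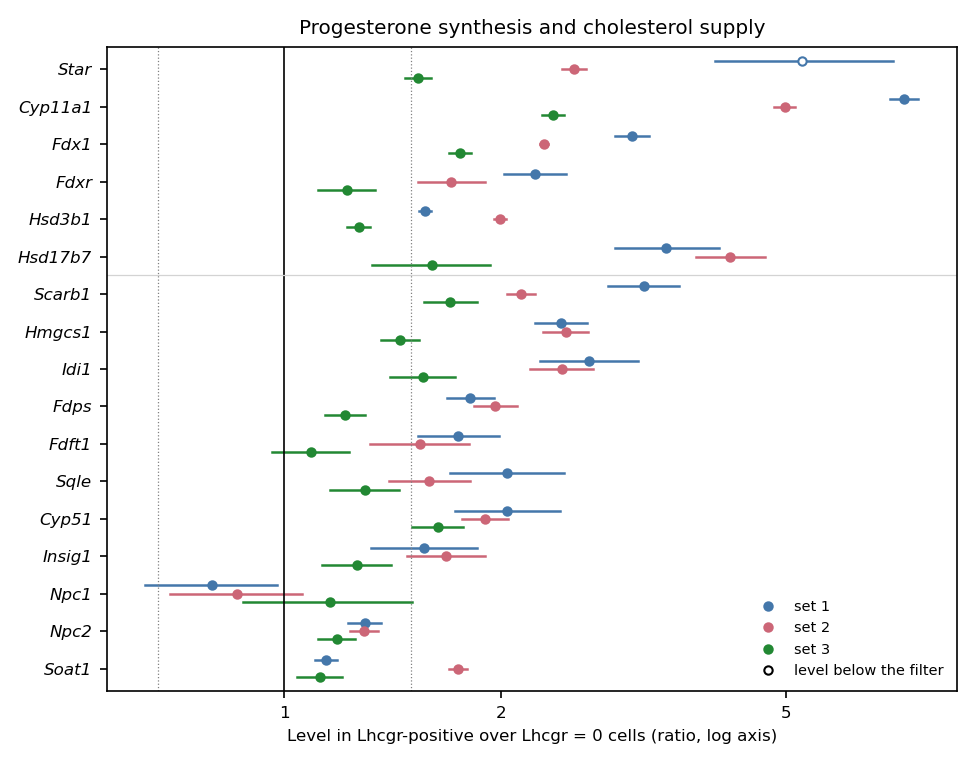
Ratio of the mean level in Lhcgr-positive over Lhcgr = 0 gate cells (x axis, log) for genes of progesterone synthesis (top) and cholesterol supply (bottom) in barcode sets 1, 2 and 3, with 95% counting intervals. Dotted lines mark 1.5 and 1/1.5, an open point marks a level below the filter, and Cyp11a1 reaches 7.29, 4.97 and 2.36 while the set 3 points lie nearest 1 for most genes.

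Further genes among the 30 called higher in all 3 sets follow. *Prlr*, the prolactin receptor, was at 7.13 against 3.60 in set 1, 4.98 against 1.82 in set 2 and 8.93 against 4.30 in set 3. The *Prlr* ratios were 1.98, 2.74 and 2.08, and that of set 3 was 1.95 at 3000 UMIs. *Sfrp4*, a secreted Wnt antagonist, had ratios of 5.33, 4.70 and 1.84, and at 3000 UMIs that of set 1 was 2.38. *Mrap*, an accessory protein of melanocortin receptors, had ratios of 2.59, 1.90 and 1.62, and *Abca1*, a cholesterol exporter, 3.25, 1.99 and 1.74. *Me1*, a malic enzyme that makes NADPH, had ratios of 2.81, 2.61 and 1.60. At 3000 UMIs the set 1 ratios of *Mrap* and *Abca1* were 1.63 and 2.06, and the set 3 call of *Me1* was lost at 1.46. With *Cyp17a1* and *Dcn* at 0 the *Abca1* ratio was 1.75 in set 1 and 1.46 in set 3, where its call was lost, as it was without the cells with theca or stroma genes. 

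Of the other genes with the largest median ratios over the 3 sets, *Mgarp*, *Hao2*, *Prss35* and *Rhox8* kept their calls in every setting where single genes were followed. The changed filters were not among those settings. *Mgarp*, a mitochondrial protein of steroid-making tissues, had ratios of 2.497, 2.74 and 1.69, and *Hao2*, a hydroxyacid oxidase, 3.01, 2.58 and 2.28. *Prss35*, a protease-like protein, had ratios of 3.43, 2.52 and 1.96. *Rhox8*, a homeobox gene of reproductive tissues, was at 1.91 against 0.743 in set 1, 2.73 against 1.03 in set 2 and 24.8 against 14.1 in set 3. *Gm2a*, a lysosomal lipid transfer protein, had ratios of 3.64, 4.405 and 1.56, with the calls of sets 1 and 2 lost at 3000 UMIs, at 1.34 and 1.43. The set 3 call of *Gm2a* was lost in 2 settings, among them *Inha* of at least 2.5, where it was 0.985. *Pkdcc*, a secreted kinase, went from 6.90 in set 1 to 3.27 at 3000 UMIs, and in set 3 from 1.60 to 0.925. *Epdr1*, *Cited4* and *Avpi1* each lost calls of set 3 in at least 1 setting, from ratios of 1.65, 1.51 and 1.68. *Cited4* also lost its set 1 call in 1 setting, and *Avpi1* its set 1 call in 5 settings and its set 2 call in 2. *Adh1*, *Gsta2* and *Osr2* stood above *Cyp11a1* in set 1, with ratios of 9.99, 9.05 and 7.52 at levels under 1 UMI per 10000. With *Cyp17a1* and *Dcn* at 0 the set 1 ratios of *Adh1*, *Gsta2* and *Osr2* were 5.97, 1.71 and 2.93, none of them called.

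Among luteal genes as a list, 6 of 8, 7 of 10 and 2 of 10 were called higher, and 0, 0 and 1 lower, with median ratios of 2.01, 2.21 and 1.24, and *Ptgfr*, the receptor through which prostaglandin acts on the corpus luteum, was at 3.27 and 1.095 in set 2.

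In sets 1 and 2 the *Cyp11a1* level was higher in each class with more *Lhcgr* UMIs. *Cyp11a1* in set 1 stood at 2.91 in cells with none, 5.11 with 1, 10.9 with 2 or 3, and 47.0 with 4 or more. In set 2 the levels were 3.35, 9.10, 14.3 and 39.7. In set 3 they were 9.62, 20.7, 27.6 and 28.8, and the last class held only 19 cells. In each set the cells with 1 *Lhcgr* UMI already stood above those with none. The number of UMIs of a gene also depends on depth: in set 1 the cells with 4 or more had a median of 9722.5 UMIs, against 5435 in those with none.

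The same set 1 class carried less *Inha* and more *Aldh1a1*. *Inha* was at 67.9 in cells with 1 *Lhcgr* UMI, 91.9 with 2 or 3 and 49.0 with 4 or more. *Aldh1a1* went over the classes from 1.83 to 2.66, 4.86 and 17.5, *Gas6* from 2.21 to 16.0 and *Col3a1* from 0.526 to 3.44, and *Cyp17a1*, capped by the gate, stood at 0.297, 0.497, 0.756 and 1.41. In set 2 the *Aldh1a1* levels of 1.36, 1.62, 2.37 and 3.44 spanned a smaller range. *Scarb1* in set 2 stood at 2.80, 4.62, 5.71 and 9.95, and *Prlr* at 1.82, 3.56, 5.65 and 7.86.

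**Figure D3:**
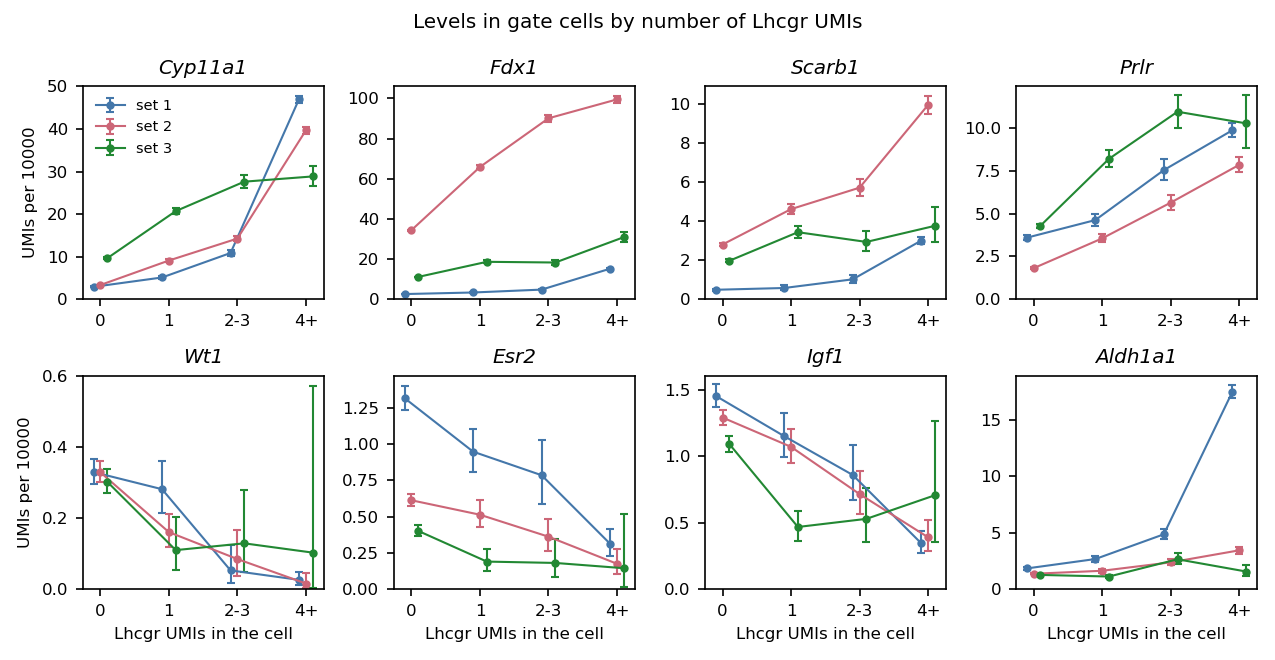
Mean level (y axis, UMIs per 10000) of 8 genes in gate cells with 0, 1, 2 or 3, and 4 or more Lhcgr UMIs (x axis) in barcode sets 1, 2 and 3, with 95% counting intervals. In set 1 Cyp11a1 goes from 2.91 to 47.0 and Aldh1a1 from 1.83 to 17.5, while Wt1, Esr2 and Igf1 go down in sets 1 and 2.

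*Wt1* and *Thbs1* were called lower in the *Lhcgr*-positive cells of all 3 sets, while the list of genes of smaller follicles was mixed in set 1. Of the preantral and small antral list, 4 of 9 in set 1, 5 of 10 in set 2 and 7 of 10 in set 3 were called lower, and 3, 1 and 0 higher, with median ratios of 0.966, 0.599 and 0.477. The summed level of the list was nevertheless higher in the *Lhcgr*-positive cells of sets 1 and 2, at 48.4 against 43.8 and 61.3 against 50.7, and lower in set 3, at 9.93 against 15.9. *Wt1*, a transcription factor of early granulosa cells, was at 0.140 against 0.329 in set 1, 0.111 against 0.329 in set 2 and 0.113 against 0.302 in set 3. The *Wt1* ratios were 0.425, 0.337 and 0.374, with intervals of 0.327 to 0.548, 0.253 to 0.443 and 0.215 to 0.609. At 3000 UMIs none of the 3 *Wt1* calls was kept, at ratios of 0.213, 0.256 and 0.647, and as deposited 7.20, 4.83 and 5.62% of the *Lhcgr*-positive cells carried a *Wt1* UMI. *Thbs1*, an inhibitor of angiogenesis, was at 1.28 and 3.22, 1.87 and 4.35, and 0.453 and 1.32, with ratios of 0.398, 0.431 and 0.344. *Kctd14* had ratios of 0.496, 0.282 and 0.210, and *Slc18a2*, a monoamine transporter, 0.331 and 0.362 in sets 1 and 2. The calls of *Kctd14* in sets 1 and 3 and of *Slc18a2* in sets 1 and 2 were lost at 3000 UMIs, where the ratios were 0.676 and 0.357 for *Kctd14* and 0.162 and 0.280 for *Slc18a2*.

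*Esr2* and *Igf1* were called lower in all 3 sets, whereas the estradiol and FSH response list moved both ways. Of that list, 3 of 14 in set 1, 2 of 12 in set 2 and 1 of 11 in set 3 were called higher, and 5, 3 and 4 lower, with median ratios of 0.832, 1.13 and 1.02. *Esr2*, the main estrogen receptor of granulosa cells, was at 0.687 against 1.32 in set 1, 0.405 against 0.613 in set 2 and 0.184 against 0.402 in set 3. Its ratios were 0.521, 0.660 and 0.459. *Igf1*, a growth factor that augments the action of FSH, had ratios of 0.551, 0.649 and 0.457. The set 2 calls of *Esr2* and *Igf1* were lost in 4 and 2 settings, and their set 3 calls at 3000 UMIs, where the ratios were 0.875 and 0.712. Both declined over the *Lhcgr* classes in set 1, *Esr2* from 1.32 to 0.312 and *Igf1* from 1.45 to 0.344. *Nupr1*, a stress-response gene, had ratios of 0.530, 0.314 and 0.201, and at 3000 UMIs those of sets 2 and 3 were 0.155 and 0.123.

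Among the other genes with the smallest median ratios, *Tex14*, known for the bridges between germ cells, was at 0.303, 0.336 and 0.150 by set, and *Dsp*, a desmosome protein, at 0.418, 0.426 and 0.443. *Arhgdig*, *Pik3ip1* and *Cables1* had set 1 ratios of 0.493, 0.405 and 0.393. All of these were called lower in all 3 sets, and each of their set 3 calls was lost at 3000 UMIs. The set 3 ratios there were 0.222 for *Tex14*, 0.677 for *Dsp*, 0.744 for *Pik3ip1* and 0.592 for *Cables1*, and no *Lhcgr*-positive cell held an *Arhgdig* UMI.

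*Foxo1*, a transcription factor that FSH signalling restrains, was at 5.20 against 7.29 in set 1, 1.04 against 1.95 in set 2 and 1.05 against 2.12 in set 3. It was called lower in sets 2 and 3, at 0.531 and 0.495. *Id3*, a target of BMP signalling, had ratios of 0.985, 0.541 and 0.591. *Fshr*, the FSH receptor, was at 0.833 against 1.19 in set 1, 0.633 against 0.716 in set 2 and 0.528 against 0.298 in set 3, called higher only in set 3 at 1.77, a call lost at 3000 UMIs, where it was 1.46. *Cyp19a1*, the aromatase that makes estradiol, was at 2.66 and 1.37 in set 1, a ratio of 1.95, and at 6.05 and 4.43 in set 2, which was not called.

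**Figure D4:**
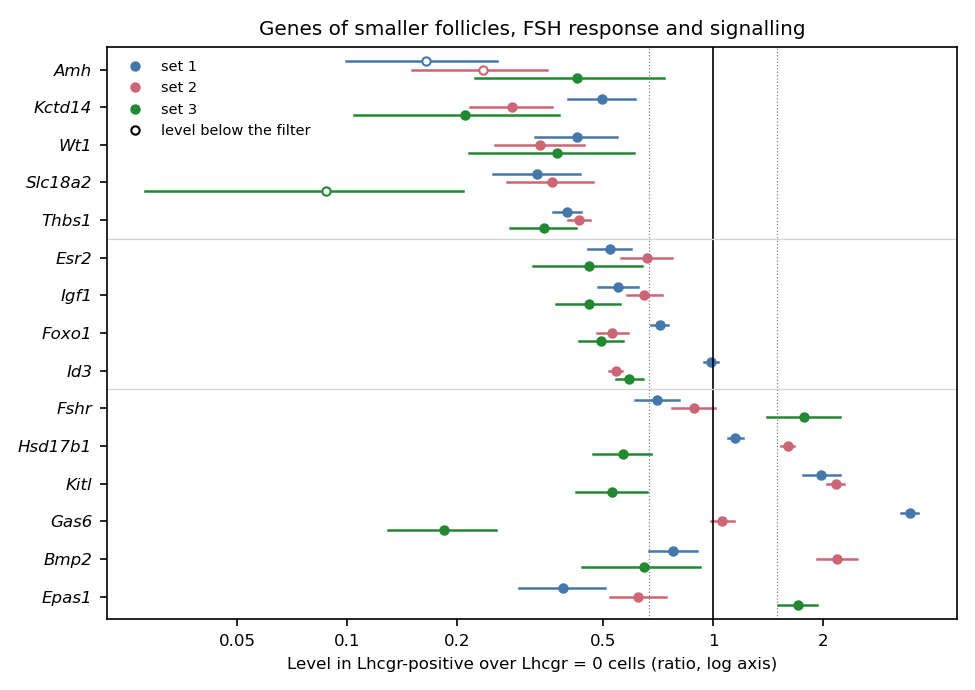
Ratio of the mean level in Lhcgr-positive over Lhcgr = 0 gate cells (x axis, log) for genes of smaller follicles, FSH response and signalling in barcode sets 1, 2 and 3, with 95% counting intervals. Thbs1 and Wt1 lie below 1/1.5 in all 3 sets, while Kitl, Gas6, Bmp2 and Epas1 lie on different sides of 1 in different sets.

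*Areg*, *Ereg* and *Pgr*, which LH is known to induce, were called higher in the *Lhcgr*-positive cells of set 2, while the LH-induced list held calls in both directions there. Of the list, 1 of 7 in set 1, 8 of 18 in set 2 and 5 of 15 in set 3 were called higher, and 0, 2 and 1 lower. Over all genes compared, 4.67, 4.25 and 4.31% were called higher and 5.47, 6.96 and 4.85% lower. *Areg*, an EGF-like factor that relays the LH signal, was at 22.1 and 9.60 in set 2, a ratio of 2.31 (2.24 to 2.37), and at 0.0628 and 0.252 in the *Lhcgr*-positive cells of sets 1 and 3. *Ereg*, a related factor, was at 23.4 and 8.40 in set 2, a ratio of 2.79, and its set 3 ratio of 2.17 was 0.847 at 3000 UMIs. *Btc*, the third such factor, had a set 2 ratio of 1.65, a call lost at 3000 UMIs, where it was 1.41. *Pgr*, the progesterone receptor needed for ovulation, was at 1.79 and 0.635 in set 2, a ratio of 2.83. The high levels of *Areg*, *Ereg* and *Pgr* were thus found in set 2, in both classes of cells.

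*Vcan*, *Sult1e1*, *Runx2* and *Smarca1* were highest in set 3. *Vcan*, a matrix proteoglycan, was at 3.87 against 4.16 in set 1, 13.3 against 6.62 in set 2 and 45.4 against 27.9 in set 3, with ratios of 2.01 and 1.63 in the last 2 sets, the latter 1.48 and not called in cells with no UMI of a mitosis gene. *Sult1e1*, an estrogen sulfotransferase, was at 2.47 and 1.29 in set 2 and at 27.3 and 23.7 in set 3, where it was not called. *Runx2*, a transcription factor of luteinizing cells, was at 0.460 against 0.215 in set 2 and 5.53 against 2.97 in set 3, for ratios of 2.14 and 1.86 (1.28 in set 2 with *Inha* of at least 2.5). *Smarca1*, a chromatin remodeller, was at 3.08, 1.64 and 11.1 in the *Lhcgr*-positive cells, with ratios of 2.19, 1.65 and 1.58, of which the last was 1.49 at 3000 UMIs and no longer called.

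*Ptx3* was lower in the *Lhcgr*-positive cells of sets 2 and 3, while *Tnfaip6*, also on the LH-induced list, was not called in either. Of a separate list of cumulus genes, which holds neither, 1 of 5 in set 1, 1 of 5 in set 2 and 0 of 7 in set 3 were called higher, and 0, 0 and 2 lower, with median ratios of 0.829, 1.104 and 1.00. *Ptx3*, a matrix protein of the expanding cumulus, was at 0.242 and 0.566 in set 2 and at 0.0943 and 1.57 in set 3, where the ratio was 0.0602 (0.0381 to 0.0905). *Tnfaip6*, which links hyaluronan in that matrix, was at 7.81 against 7.48 in set 2 and 2.60 against 2.59 in set 3, for ratios of 1.04 and 1.01. Of immediate early genes, 2 of 16, 0 of 19 and 0 of 17 were called higher and 0, 1 and 0 lower. The shares over all genes compared were 4.67, 4.25 and 4.31% higher and 5.47, 6.96 and 4.85% lower. *Fos* stood at 13.1, 14.7 and 16.9 in the *Lhcgr*-positive cells and *Egr1* at 6.91, 18.6 and 13.6. Of the glycogen metabolism genes, 10, 6 and 7 were above the filter and none was called in any set. With so few genes, a count of 0 is near the share over all genes.

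**Figure D5:**
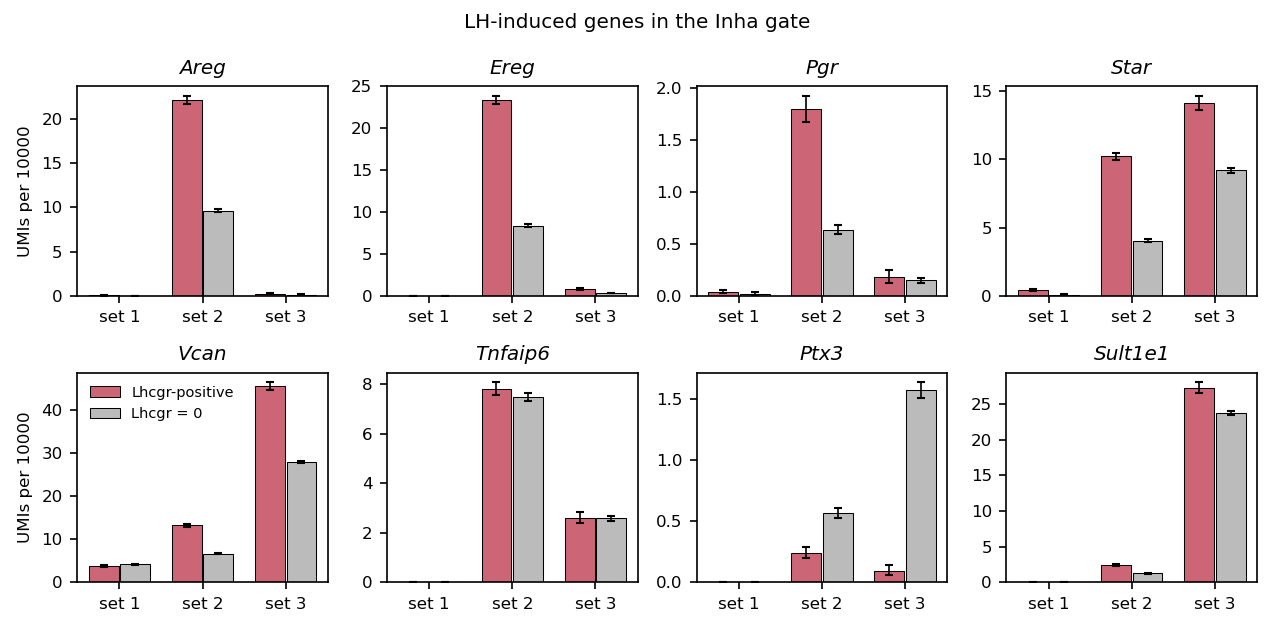
Mean level (y axis, UMIs per 10000) of 8 LH-induced genes in Lhcgr-positive and Lhcgr = 0 gate cells of barcode sets 1, 2 and 3 (x axis), with 95% counting intervals. Areg and Ereg stand at 22.1 and 23.4 in the Lhcgr-positive cells of set 2, Vcan and Sult1e1 at 45.4 and 27.3 in those of set 3, and Ptx3 is higher in the Lhcgr = 0 cells.

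The *Lhcgr*-positive cells were also compared between sets. In set 2 against set 1, 11.7% of 5736 genes were called higher and 35.9% lower, and the median ratio was 0.772. In set 3 against set 2, 36.3% were higher and 16.7% lower, with a median of 1.23, and in set 3 against set 1, 18.6% were higher and 22.2% lower, with a median of 0.985. Relative to those medians, *Tnfaip6*, *Areg* and *Ereg* were among the largest rises of set 2 over set 1, from 0.00861 to 7.81, 0.0628 to 22.1 and 0.0250 to 23.4. *F3*, the tissue factor of coagulation, was at 0.0584, 18.7 and 0.270 by set, and *Pde10a*, a cyclic nucleotide phosphodiesterase, at 0.0982, 19.9 and 0.515. *Nts*, the precursor of neurotensin, was at 0.0137 in set 1, 3.58 in set 2 and 37.6 in set 3. Among genes lower in set 3 than in set 1, *Nppc* fell from 6.42 to 0.115 and *Gas6*, a ligand of TAM receptors, from 7.62 to 0.148. The set 1 mean of *Gas6* was set largely by the 182 cells with 4 or more *Lhcgr* UMIs, at 16.0, the class with the most *Aldh1a1*, while the median over all set 1 members was 1.73. Each set is 1 library at most, so library and time cannot be told apart.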

How the data were processed

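The authors deposited 1 table of natural log values, ln(UMIs per 10000 + 1), for 31776 cells and 24958 genes. The submitters' processing notes name Cell Ranger, Seurat and mm10. Filters and doublet handling are not given in the sources used here for this table, and no doublet caller was run. Each value was turned back into counts from the smallest value of its cell, taken as 1 UMI: 100.0% of 80167176 values came out whole within 0.01 UMI, giving 240030587 UMIs and medians of 6093, 6352 and 6524 UMIs per cell in barcode sets 1, 2 and 3. The sets held 10384, 9917 and 11475 cells, and 112 barcode sequences occurred in more than 1 set. Of the *Lhcgr*-positive cells, 8 had a barcode sequence that also occurred in another set, and none shared its sequence with another *Lhcgr*-positive cell.

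Levels were means over cells of UMIs per 10000. Intervals were exact Clopper-Pearson for shares, and Poisson and conditional binomial for levels and ratios, rescaled to the mean level. With at most 1 library per set, no p-value was computed. The scripts were tested on simulated data (Python 3.11.15, numpy 2.4.6, scipy 1.17.1, pandas 2.3.3, matplotlib 3.10.9). Thinning drew 3000 UMIs from each cell, leaving out the 135 gate cells of set 1, 167 of set 2 and 66 of set 3 that were shallower. Genes named were taken from lists by role, the genes that chose the cells, the 15 largest and 15 smallest median ratios among genes called in all 3 sets, and the 10 at each end per set and between sets. The members and lists were chosen with earlier results of these data known.

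Alternatives changed the level (summed UMIs), depth, the *Lhcgr* and *Inha* thresholds, the mitosis and theca conditions and the filter. One more, leaving out cells with 2 or more theca or stroma genes, was chosen after seeing the data. Most members of the lists and many genes of the rankings are given only in counts, and some results are not reported here.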

Additional observations from a re-analysis of the deposited data

Results flagged for a closer look

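Several genes were called in opposite directions in different barcode sets, always as the ratio of *Lhcgr*-positive over *Lhcgr* = 0 cells. None of these differences between sets was tested, since each set is 1 library at most. *Kitl*, the KIT ligand, was at 1.98 in set 1, 2.16 in set 2 and 0.529 in set 3. *Gas6* was at 3.45 in set 1 and 0.184 in set 3. Its set 1 call was lost with *Cyp17a1* and *Dcn* at 0, where it was 1.42. *Hsd17b1*, which makes estradiol from estrone, was at 1.60 in set 2 and 0.566 in set 3, calls lost in 1 setting for set 2 (1.38, with the level from summed UMIs) and in 3 for set 3. *Epas1*, a hypoxia-inducible factor, was at 0.390 in set 1, 0.625 in set 2 and 1.71 in set 3. *Bmp2* was at 2.18 in set 2 and 0.646 in set 3, the latter a call lost in 8 settings. *Col1a2*, a stroma collagen, was at 2.75 in set 1 and 0.591 in set 2, and without the cells carrying 2 or more theca or stroma genes the values were 1.48 and 0.953, neither called. The set 3 calls of *Kitl*, *Gas6*, *Hsd17b1* and *Epas1* were lost at 3000 UMIs, where the ratios were 0.736 for *Kitl*, 0.690 for *Hsd17b1* and 1.18 for *Epas1*, and *Gas6* had no UMI in the 77 *Lhcgr*-positive cells left.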

How the results depend on the processing

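No paired analysis was possible because the labels give 1 library per time point and no replicate numbers. Of the named genes called, 37 of 49 in set 1, 48 of 57 in set 2 and 22 of 49 in set 3 were still called at 3000 UMIs, fewest in set 3. Thinning also left fewer *Lhcgr*-positive cells, at 395, 420 and 77. With only cells of at least 3000 UMIs, not thinned, 49 of 49, 56 of 57 and 48 of 49 were still called. With the *Lhcgr* = 0 cells weighted to the depth of the *Lhcgr*-positive cells, the numbers were 49 of 49, 57 of 57 and 46 of 49. The directions that reversed were *Idi1* (0.992), *Ereg* (0.847) and *Pkdcc* (0.925) in set 3 at 3000 UMIs, *Gm2a* (0.985) in set 3 with *Inha* of at least 2.5, and *Col3a1* (0.945) in set 1 with *Cyp17a1* and *Dcn* at 0. Thinning gave shares with *Lhcgr* of 23.8, 16.5 and 6.30%, 173 genes lower in set 3, 15 lower in all 3 sets and 870 lower in set 3 against set 1. With at least 2 *Lhcgr* UMIs, the shares were 17.5, 10.7 and 4.15%, and the counts were 468 higher and 696 lower in set 1, 718 lower in set 2, 480 higher and 414 lower in set 3, and 52 higher and 82 lower in all 3 sets. *Inha* of at least 2.5 left 19 genes higher in all 3 sets. With *Cyp17a1* and *Dcn* at 0 the shares of sets 1 and 2 were 24.2 and 20.6%. A filter at 0.5 gave 136 higher and 181 lower, 145 and 140, and 131 and 108 in sets 1, 2 and 3, and 17 and 13 called in all of them, so that more genes were higher than lower in sets 2 and 3. Without a filter the counts were 1166 and 1046, 769 and 1641, 709 and 826, and 87 and 129, with more higher than lower in set 1. All other counts and shares stayed close to those reported, the counts within 1.5 times. The causes of these shifts were not tested.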

Other observations

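Other gene groups were compared in the same way between the *Lhcgr*-positive and *Lhcgr* = 0 cells. Over all genes above the filter, 4.67, 4.25 and 4.31% were called higher and 5.47, 6.96 and 4.85% lower in sets 1, 2 and 3. Of angiogenic factors, 1 of 6, 0 of 6 and 1 of 5 were higher, and 2, 3 and 1 lower. Of granulosa transcription factors, 3 of 20, 2 of 21 and 4 of 22 were higher, and 2, 3 and 4 lower. Of S-phase genes, 3 of 9 were lower in set 1, 0 of 4 in set 2 and 4 of 11 in set 3, and none was higher, after the gate had removed cells with 3 or more mitosis genes. Of cAMP and PKA signalling genes, 0 of 11, 3 of 16 and 1 of 14 were higher, and 2, 0 and 0 lower. Of glucose uptake and glycolysis genes, 1 of 16, 1 of 17 and 0 of 17 were higher, and 1, 0 and 2 lower. Among extracellular matrix and adhesion genes, 6 of 15 were higher in set 1, where the theca and stroma genes were also higher, against 2 of 15 and 1 of 16 in sets 2 and 3. Of the same genes, 0, 1 and 2 were lower. Genes of the dissociation response, which rise during tissue digestion, were called higher for 2 of 10 in set 1 and none in the others.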
